A study of Caenorhabditis elegans with 2 samples.

Results

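The genes described here are hsp-90, hsp-60, dnj-13 and dnj-28 of Caenorhabditis elegans, which encode the HSP90 chaperone, the mitochondrial chaperonin and a pair of J-domain co-chaperones. They are 4 of the 223 protein-coding genes, among 19985 in the annotation, that had a summit of the pooled thresholded list within 1000 bp of an annotated transcription start site (TSS). They were chosen by name with these peaks already known, so their peak values are given as a description and no test was made on them. Binding of ZIP-11, a basic leucine zipper (bZIP) transcription factor, was mapped by ChIP-seq with an antibody against GFP. The 2 samples are biological replicates of 1 group: whole L4 larvae aged 52.5 hours, from strain OP761, grown from L1 larvae that were starved after bleaching. The worms carried the integrated transgene wgIs761, which encodes ZIP-11 fused to TY1, EGFP and 3xFLAG tags and also holds a functional unc-119 copy, in an unc-119(tm4063) background. Signal therefore came from a tagged transgene product in whole worms, and the tissues that gave it cannot be told apart. No group without the tag was analysed here. Each sample has its own thresholded and ranked peak lists, and the pooled list and a shorter conservative list were made from both samples together; no list holds read counts, so sequencing depth is unknown.

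HSP90 is an ATP-driven chaperone that completes the folding of client proteins such as protein kinases and nuclear receptors. HSP-60 forms the folding chamber of the mitochondrial matrix, which is closed by a small lid protein, the 10 kDa co-chaperonin, and its gene is a standard marker of the mitochondrial unfolded protein response. J-domain proteins bring substrates to HSP70 and stimulate its ATPase. DNJ-13 is a class B J-domain protein that acts with HSP70 and HSP110 in the worm's protein disaggregase, while RefSeq describes DNJ-28 only as a J-domain protein. Many chaperone promoters carry heat shock elements, arrays of inverted GAA and TTC units that bind the heat shock factor HSF-1.

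The sequence around 3 of the summits is shown. Each run holds a heat shock element, which at hsp-90 and hsp-60 lies more than 50 bp from the summit. At dnj-28, whose sequence is not shown, no such element was matched within 100 bp. Each run covers 100 bp on either side of the summit on the plus strand, which is the strand of the gene, and was read from the RefSeq genome of assembly WBcel235, the same sequence as ce11. Capitals mark 2-unit heat shock elements (GAANNTTC or TTCNNGAA) and the C/EBP-type motif TTGCNNAA on either strand. The hsp-90 window is chrV:14685593-14685793, the hsp-60 window is chrIII:1619016-1619216 and the dnj-13 window is chrII:11545378-11545578. None of the 3 windows overlaps an annotated UTR.
hsp-90: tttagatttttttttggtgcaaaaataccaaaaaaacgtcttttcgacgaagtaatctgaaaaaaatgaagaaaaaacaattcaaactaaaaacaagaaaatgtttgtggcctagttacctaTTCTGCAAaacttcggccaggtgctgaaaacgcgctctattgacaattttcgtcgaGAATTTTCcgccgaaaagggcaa
hsp-60: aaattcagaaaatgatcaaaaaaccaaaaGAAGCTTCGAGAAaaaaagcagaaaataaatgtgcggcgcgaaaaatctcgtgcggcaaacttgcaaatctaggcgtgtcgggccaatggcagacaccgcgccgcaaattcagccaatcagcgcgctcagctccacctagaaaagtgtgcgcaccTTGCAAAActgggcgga
dnj-13: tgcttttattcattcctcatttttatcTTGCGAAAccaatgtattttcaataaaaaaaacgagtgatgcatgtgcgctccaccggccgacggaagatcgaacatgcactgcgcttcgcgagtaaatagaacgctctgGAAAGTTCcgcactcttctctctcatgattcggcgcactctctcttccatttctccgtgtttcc

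The main motif window was 50 bp on either side of a summit, and the alternative was 100 bp. In the alternative window a heat shock element of 2 units lay at hsp-90, hsp-60 and dnj-13. At dnj-13 it began 37 bp downstream of the summit and at hsp-90 it began 78 bp downstream. At hsp-60 a GAANNTTC and a TTCNNGAA shared their TTC, so that 3 alternating units ran from 71 to 59 bp upstream of the summit. Either form was present in 16% of the 326 other nuclear regions of the pooled thresholded list and in 23.7% of the 111181 other nuclear peaks of the pooled ranked list. Windows of the same length centred 100 bp upstream of all 19973 nuclear coding genes held either form in 22.1% of cases. The 3-unit form was present in 1.84% of the other nuclear regions and in 1.24% of those promoter windows. Joining the forms, and the 3-unit form, were chosen after these windows were seen. In the main window of 50 bp the element at dnj-13 was the only match among the 4 genes, against 6.44% of the other nuclear regions. These are letter matches and do not show that any factor was bound there.

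Among the bZIP-type motifs, TTGCNNAA lay within 100 bp of the summit at hsp-90, hsp-60 and dnj-13, against 18.7% of the other nuclear regions and 18.9% of coding promoters. Within the main window of 50 bp it lay at hsp-90 alone, against 6.44% of the other nuclear regions. The cAMP response element core TGACGT was found at dnj-28, 24 bp downstream of its summit, against 3.37% of the other nuclear regions and 6.93% of coding promoters in windows of 100 bp. The AP-1 site TGANTCA, the ATF4-type site TGATGCAA and the unfolded protein response element TGACGTGG were matched in none of the 4 windows of 100 bp. They were present in 4.6%, 1.53% and 0.307% of the other nuclear regions. Of the words known from earlier results of these data to be common in the list, the tRNA B box word GTTCGA lay across the dnj-13 summit, against 26.1% of the other nuclear regions in windows of 50 bp. CACTCGGC was at none of the 4 genes in either window, against 5.52% of the other nuclear regions in windows of 50 bp. In windows of 100 bp GAGAGA was found at dnj-13 (28.8% of the other nuclear regions), the splice acceptor word TTTNCAG at hsp-90 and dnj-13 (15.6%) and TATAAA at none of the 4 (17.5%). All 12 motifs were searched on both strands.

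The hsp-90 region lay on chromosome V from 14685553 to 14685832 (ce11, counted from 1, as are all positions here), with its summit at 14685693. The annotation of Ensembl release 115 gives hsp-90 (WBGene00000915, 14684918 to 14688545, plus strand) a pair of transcripts with separate starts. The summit stood 467 bp upstream of the start of transcript C47E8.5.1 and 775 bp downstream of that of C47E8.5.2, within an intron of the longer one. C47E8.4, the worm FAM50 homolog, begins 208 bp from the summit and runs the other way, so the summit was closer to the C47E8.4 start than to any hsp-90 start. The authors' signal value, the peak strength column of the list format, was 68.0 in the pooled thresholded list, and the region ranked 249 of 349 by it. Each ranked peak also has a global irreproducible discovery rate (IDR), deposited as its −log10. By design this is high where the peak ranks both high and alike in a pair of inputs, and not by like ranks alone. Some peaks of low pooled signal value also had a high one, as at dnj-13 below. Peaks of the thresholded lists had a −log10 IDR of at least 2, but 32 pooled and 28 conservative ranked peaks at such a value were not in the thresholded lists. The hsp-90 peak had 2.15 in the pooled and 2.03 in the conservative ranked list.

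The samples' own lists placed the hsp-90 peak differently. Its signal value was 45.9 in replicate 1, rank 164 of 51611 ranked peaks, and 26.1 in replicate 2, rank 1913 of 53307. The −log10 IDR was 1.76 in replicate 1 and 0.485 in replicate 2, and neither sample's thresholded list held the peak. The summits of the samples lay 56 bp apart. Another 4 pooled ranked peaks lay within 1000 bp of an hsp-90 start, with signal values from 16.8 to 32.3 and −log10 IDR no higher than 0.441. The summit with 32.3 stood 86 bp downstream of the C47E8.5.1 start. Farther off, another pooled thresholded region, from 14688413 to 14688692, overlapped the far end of hsp-90. Its summit lay within 1000 bp of starts of C47E8.11 and gasr-8. That region had a signal value of 45.4 and a −log10 IDR of 2.165, and the conservative list did not hold it.

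The hsp-60 region was the strongest of the 4 in the pooled lists. It lay on chromosome III from 1618976 to 1619255, with its summit at 1619116 in intergenic sequence, had a signal value of 101.5 and ranked 64 of 349. The summit stood 626 bp upstream of the start of hsp-60 (WBGene00002025, 1619742 to 1625803, plus strand). It stood 187 bp upstream of the start of Y22D7AL.10 (1617151 to 1618929, minus strand), which RefSeq names the mitochondrial 10 kDa heat shock protein, the lid of the same chaperonin. The starts of the chaperonin gene and of its co-chaperonin gene lie 813 bp apart, head to head, and the summit lay between them. Of the other 3 annotated hsp-60 transcripts, 2 begin close to that start, at 1619750 and 1619759, and 1 begins inside the gene, at 1623128. The −log10 IDR was 3.02 in the pooled and 2.53 in the conservative ranked list.

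Here too the samples differed, in the other direction from hsp-90. The hsp-60 peak had a signal value of 31.9 in replicate 1, rank 707 of 51611, and 66.2 in replicate 2, rank 46 of 53307. The −log10 IDR was 0.712 in replicate 1 and 3.21 in replicate 2, and the peak was in the thresholded list of replicate 2 alone. The summits of the samples were 8 bp apart, the closest pair of the 4 genes. The other 5 pooled ranked peaks within 1000 bp of an hsp-60 start had signal values of 20.1 or less.

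Both J-domain genes stood lower in the pooled list. The dnj-13 region covered 11545338 to 11545816 on chromosome II and was joined from 2 overlapping peaks. Its stronger peak had its summit at 11545478, 223 bp upstream of the start of dnj-13 (WBGene00001031, 11545701 to 11547360, plus strand), a signal value of 64.6 and rank 291 of 349. The second peak, with its summit 24 bp upstream of the start, had a signal value of 3.7, near the bottom of the list, and the −log10 IDR was 2.07 for both. Neither sample's ranked list held a separate peak for the second summit, so its −log10 IDR is not taken as a sign of a second reproducible peak. The stronger summit lay within F54D5.22, a pair of unclassified noncoding RNA genes annotated on opposite strands over the same bases, whose nearer start was 14 bp away. All of dnj-13 lies within an intron of dhgd-1, a mitochondrial D-2-hydroxyglutarate dehydrogenase gene on the minus strand. F54D5.9, an F-box protein gene, begins 650 bp from the summit and runs the other way.

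The dnj-13 peak had a signal value of 36.6 in replicate 1, rank 357 of 51611, and 29.4 in replicate 2, rank 946 of 53307. The −log10 IDR was 0.688 in replicate 1 and 0.258 in replicate 2, so neither sample's thresholded list held it. The summits were 92 bp apart, the widest gap of the 4 genes. In the conservative ranked list the −log10 IDR was 2.12. A further pair of overlapping peaks began inside the gene, with summits 501 and 700 bp downstream of the start and signal values of 49.1 and 13.4. Their −log10 IDR was 1.65 in the pooled and 0.697 in the conservative ranked list, below 2. The samples' own peaks there had signal values of 32.1 in replicate 1, with a summit 598 bp downstream of the start, between the pooled summits, and 15.4 in replicate 2, with a summit 507 bp downstream. A peak with a value of 40.2 lay at −814 bp from the start and close to the start of F54D5.9, with a −log10 IDR of 0.253.

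The dnj-28 region was the weakest of the 4 by pooled signal value, and its strongest summit was the closest to its gene's start. It lay on chromosome I from 2996280 to 2996559, with the summit at 2996420 in intergenic sequence, 68 bp upstream of the start of dnj-28 (WBGene00001046, 2996488 to 3001382, plus strand). The start of supr-1, named as a suppressor of Rpm-1, lies 506 bp from the summit on the other side. The signal value was 59.1, rank 330 of 349. The samples gave nearly the same values, 31.3 in replicate 1 (rank 779 of 51611) and 29.6 in replicate 2 (rank 891 of 53307), with summits 74 bp apart. The −log10 IDR was 0.872 in replicate 1 and 0.378 in replicate 2. In the pooled ranked list it was 2.023 and in the conservative ranked list 1.997, on either side of 2, and dnj-28 was the gene of the 4 that the conservative list did not hold. No other ranked peak of the pooled list lay within 1000 bp of its start.

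**Figure D1:**
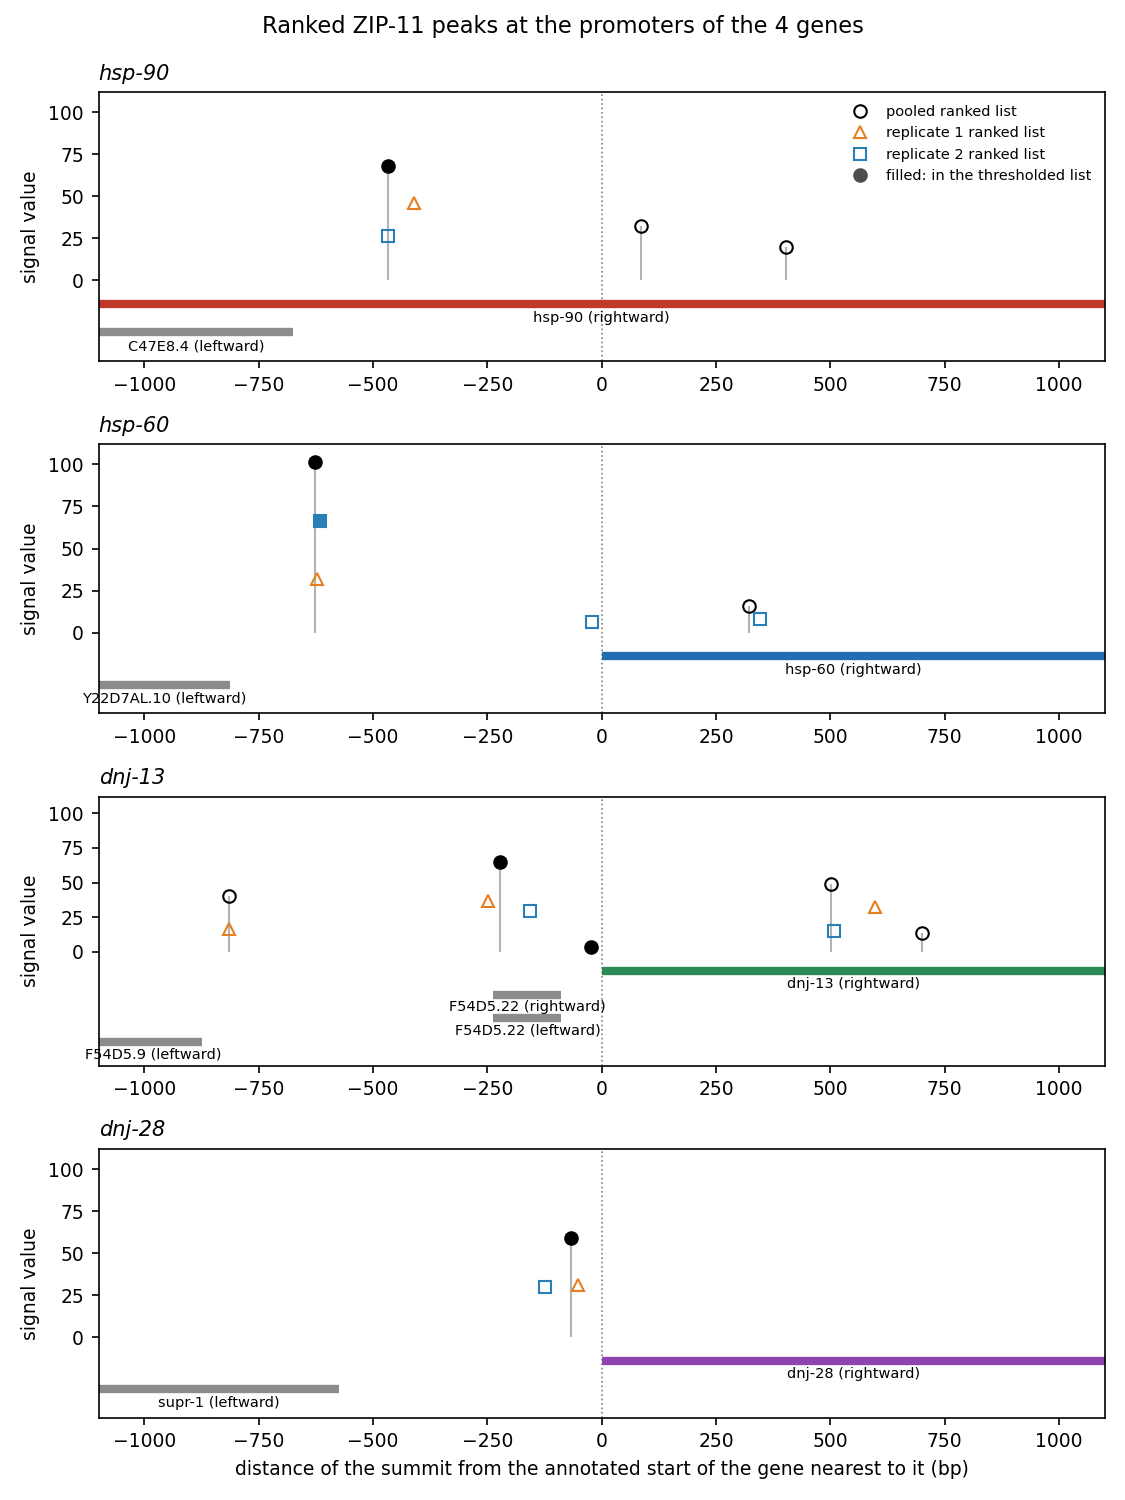
Summits of ranked peaks (x axis, bp from the gene start nearest to the strongest summit, peaks within 1000 bp of that start) against their signal value (y axis) in the pooled list and in each sample's list, 1 panel per gene, with filled symbols for thresholded peaks and bars for genes. Each strongest summit lies upstream of the start shown, from 68 bp at dnj-28 to 626 bp at hsp-60, and between that start and the start of a gene that runs the other way; the hsp-90 bar begins at its longer transcript.

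By pooled signal value the order was hsp-60 (101.5), hsp-90 (68.0), dnj-13 (64.6) and dnj-28 (59.1). The 167 other nuclear regions with a coding gene had a median of 75.6 and ran from 35.5 to 306, so hsp-60 stood above that median and the other 3 genes below it. Set among all 19985 protein-coding genes by their highest signal value in the pooled ranked list, hsp-60 was in the top 0.16%, hsp-90 in the top 0.77%, dnj-13 in the top 0.97% and dnj-28 in the top 1.33%. The order was not the same in the samples. In replicate 1 hsp-90 was highest (45.9) and dnj-28 lowest (31.3), whereas in replicate 2 hsp-60 was highest (66.2) and hsp-90 lowest (26.1). The values of dnj-13 were 36.6 in replicate 1 and 29.4 in replicate 2. Each pair of neighbours in the pooled order thus stood in opposite orders in the 2 samples, and none of them differed beyond the spread between samples. The median size of the log2 ratio of the samples' signal values was 0.57 over the 4 genes, with 1.05 at hsp-60 as the highest. Over 164 other nuclear regions with a coding gene and a value in both samples the median was 0.44 and the highest 1.77. The samples' summits were a median of 65 bp apart at the 4 genes and 28 bp apart at the others. The widest gaps were 92 bp at the 4 genes and 289 bp at the others. The scale of the values may differ between the lists, so these ratios describe the pairing of values and were not tested.

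**Figure D2:**
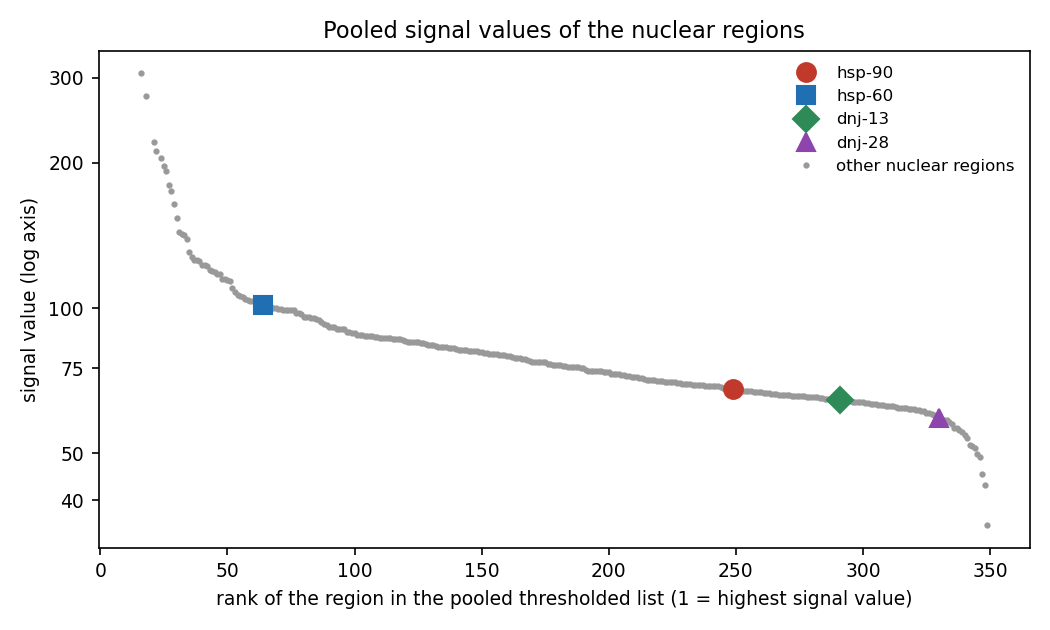
Signal value (y axis, log scale) of every nuclear region of the pooled thresholded list against its rank among all 349 regions (x axis), with the 4 genes marked. The hsp-60 region stands at rank 64, and hsp-90, dnj-13 and dnj-28 lie in the lower part of the list at ranks 249, 291 and 330.

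**Figure D3:**
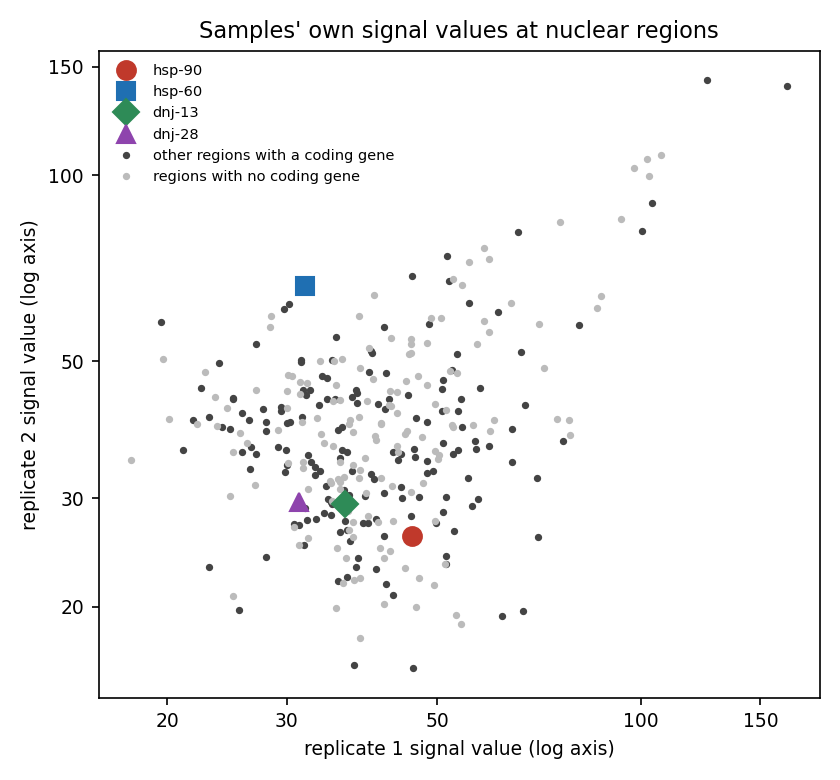
Signal value in replicate 1 (x axis) against replicate 2 (y axis), both on log scales, for the nuclear regions of the pooled thresholded list with a peak in both samples' ranked lists. The hsp-60 symbol lies high in replicate 2 (66.2) and low in replicate 1 (31.9), hsp-90 lies the other way (45.9 in replicate 1 and 26.1 in replicate 2), and dnj-13 and dnj-28 lie within the cloud of other regions.

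The pooled list held all 4 genes by choice, while 1.12% of all protein-coding genes had a summit of it within 1000 bp of a start. The conservative list held hsp-90, hsp-60 and dnj-13, against 0.921% of all protein-coding genes. The list of replicate 1 held none of the 4 (0.425% of coding genes) and that of replicate 2 held hsp-60 (0.26%). Because the choice of genes used these lists, nothing is read from the counts. Of the regions of the 4 genes, 1 was in at least 1 sample's own list, against 75 of the 167 other nuclear regions with a coding gene (44.9%). The conservative list held 3 of the 4, against 123 of the 167 (73.7%).

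**Figure D4:**
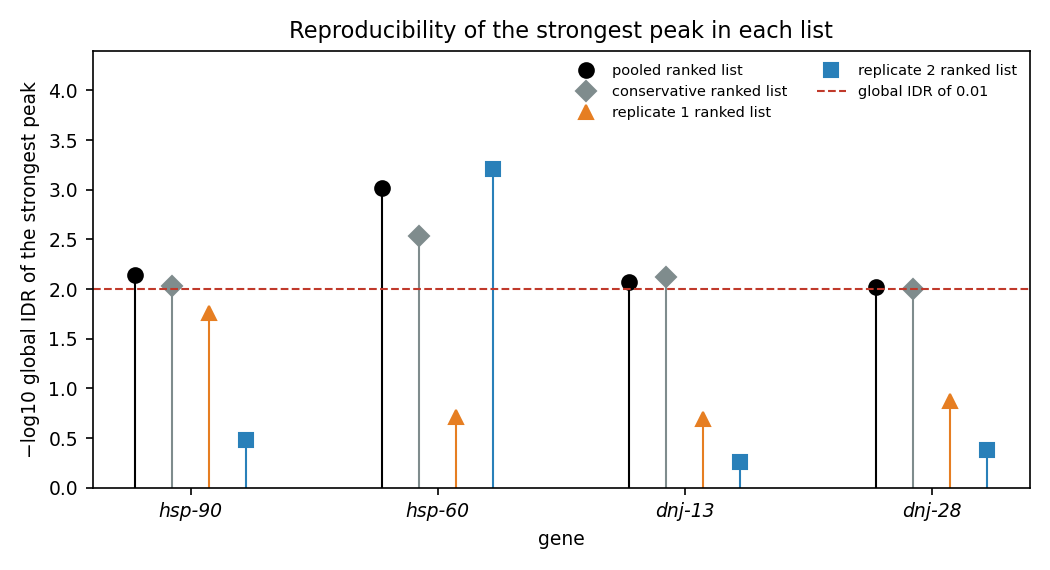
The −log10 global IDR (y axis) of the strongest peak of each gene (x axis) in the pooled, conservative and both samples' ranked lists; the dashed line marks an IDR of 0.01. Only hsp-60 passes the line in a sample's own list (3.21 in replicate 2), and dnj-28 sits on the line in the conservative list (1.997).

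A divergent neighbour was common to the 4 genes. Each summit had the start of exactly 1 other protein-coding gene within 1000 bp: C47E8.4 at hsp-90, Y22D7AL.10 at hsp-60, F54D5.9 at dnj-13 and supr-1 at dnj-28. In each case that gene ran in the opposite direction, away from the chaperone gene, and the starts were 574 to 873 bp apart. For hsp-90 this holds for the start of C47E8.5.1, since the longer transcript begins within C47E8.4, which has further starts upstream of it. So 4 of the 4 regions had 2 or more coding genes within 1000 bp, against 40 of the 167 other nuclear regions with a coding gene (24%). A region near several genes can be counted for any of them, so choosing by gene favours such regions. Of the 4 other regions of listed chaperone genes, 3 also had 2 or more coding genes: those of F44E5.4 and F44E5.5, of hsp-1 with clec-196 and of cct-8 with Y55F3AR.2. A divergent coding start within 2000 bp upstream of the gene's own start was present for 4 of the 4 genes, for 38.3% of the 209 other nuclear coding genes with a thresholded summit and for 28.7% of all nuclear coding genes. At hsp-90 and hsp-60 the neighbour's start was closer to the summit than the chaperone's own. The peaks do not show which gene of a pair they belong to.

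Base composition varied among the 4. Within 50 bp of the summit the GC content was 32.7% at hsp-90, 53.5% at hsp-60, 51.5% at dnj-13 and 45.5% at dnj-28, against a median of 49.5% over the other nuclear regions with a coding gene and 33.7% over coding promoters. The hsp-90 summit, which lies in an intron, was thus near the promoter median, and the others lay above it. Every 31-mer within 140 bp of the summit occurred once in the genome at hsp-90, hsp-60 and dnj-13, and 89.2% did at dnj-28. The median over the other nuclear regions with a coding gene was 100% and over all other nuclear regions 92.2%.

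Of 89 protein-coding genes in 9 chaperone lists, 9 (10.1%) had a thresholded summit, the 4 genes described here included, against 1.12% of all protein-coding genes. Here and below, only summits within 1000 bp of a start were counted, not those farther along a gene or past its end. Among the 85 others the count was 5. Single lists are short, and at a share of 1.12% a count of 0 in such a list says nothing about its genes. The 5 were cct-8, F44E5.4, F44E5.5, hsp-1 and hsp-3. The median of the highest signal value within 1000 bp of a start was 30.9 over those 85 genes and 25.7 over all protein-coding genes, with 0 for a gene with no ranked peak. A gene with more annotated starts has more sequence in which a peak can lie, and the lists were drawn up with earlier results of these data known.

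In the HSP90 family, the highest pooled signal value was 68.0 at hsp-90, 42.5 at enpl-1 (the endoplasmic reticulum form, rank 2943 of 111547) and 18.3 at hsp-75 (the mitochondrial form, rank 55613). The order of hsp-90 and enpl-1 did not hold in both samples. In replicate 1 hsp-90 had 45.9 and enpl-1 25.1, whereas in replicate 2 hsp-90 had 26.1 and enpl-1 27.1. None of the 9 co-chaperone genes of HSP90 had a thresholded summit within 1000 bp of a start, against 1.12% of all protein-coding genes. Their highest pooled values were 46.7 at fkb-6, an immunophilin gene, 45.2 at unc-45, the myosin chaperone gene, and 42.5 at sti-1, the gene of the adaptor between HSP70 and HSP90. Lower values were found at cdc-37, the kinase co-chaperone gene (37.6), daf-41, the p23 gene (36.2), ahsa-1, the gene of the ATPase activator (34.5), chn-1, a ubiquitin ligase gene (30.4), and sgt-1 (20.1). No ranked peak was listed for pph-5, a protein phosphatase gene. Within 1000 bp of a start the −log10 IDR was highest at unc-45 with 1.03. A thresholded region with a signal value of 99.9, from 502657 to 502936 on chromosome III, lay past the far end of unc-45. In replicate 2 sti-1 (32.7, rank 489) and daf-41 (28.6, rank 1100) stood above hsp-90 (26.1, rank 1913), and in replicate 1 below it (19.1 and 30.3, against 45.9 at hsp-90).

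Among 10 listed genes of mitochondrial protein quality control, hsp-60 had a thresholded summit, against 1.12% of all protein-coding genes. The list does not hold the co-chaperonin gene Y22D7AL.10, which has the same summit within 1000 bp of its start, because the annotation does not give it the symbol hsp-10. The matrix HSP70 gene hsp-6 is often read beside hsp-60 as a marker of the mitochondrial unfolded protein response. Its highest signal value within 1000 bp of a start was 21.3 (rank 43336 of 111547), below the median of all coding genes. A thresholded region with a signal value of 52.1, from 4823625 to 4824108 on chromosome V, lay past the far end of hsp-6, within 1000 bp of a start of adss-1. The genes for the matrix proteases had 39.8 (lonp-1) and 39.4 (clpp-1), and in replicate 1 hsp-60 (rank 707) stood below clpp-1 (rank 388). The regulators of that response had 39.4 at dve-1, 38.9 at haf-1, 28.8 at atfs-1 and 20.7 at ubl-5. The J-domain genes dnj-10 and dnj-21 had 26.1 and 7.5. In the cytosolic chaperonin, which folds actin and tubulin, 1 of 8 subunit genes had a thresholded summit, against 1.12% of all protein-coding genes. This was cct-8, with a signal value of 80.2, a summit at −463 bp from its start and the thioredoxin-domain gene Y55F3AR.2 also within 1000 bp. As at hsp-90, its value was higher in replicate 1 (52.9, rank 109) than in replicate 2 (26.5, rank 1772). The other 7 subunit genes ranged from 15.7 at cct-2 to 40.5 at cct-3, and none of the 6 prefoldin genes had a thresholded summit.

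Of 30 J-domain genes, dnj-13 and dnj-28 had a thresholded summit and the other 28 did not, against 1.12% of all protein-coding genes. The next highest pooled signal values were 48.8 at dnj-9 (−log10 IDR 1.02), 47.9 at dnj-25 (1.02) and 45.2 at dnj-4 (0.519), and the lowest was 4.1 at dnj-15. No pooled ranked peak was listed for dnj-26, which had 21.7 in replicate 1 (rank 6181) and 23.7 in replicate 2 (rank 3387). In replicate 2 dnj-13 (29.4) and dnj-28 (29.6) stood below dnj-9 (33.2, rank 445) and dnj-14 (33.5, rank 429). The median of the pooled values over the 28 was 27, against 25.7 over all coding genes. None of the 12 small heat shock protein genes had a thresholded summit (1.12% of all protein-coding genes), and the highest of their pooled signal values was 49.4 at sip-1. Of the regulators of the heat shock response, hsf-1 and ddl-2 had no pooled ranked peak within 1000 bp of a start. That was so for 1922 of all 19985 protein-coding genes, and hsf-1 had a peak of 21.2 in replicate 2 (rank 6041). In the HSP70 and HSP110 list 4 of 10 genes had a thresholded summit, against 1.12% of all protein-coding genes. They were F44E5.4 and F44E5.5, which share a region (274.7), hsp-1 (65.8) and hsp-3 (63.2). The hsp-1 and hsp-3 values thus lay between those of hsp-90 and dnj-28.

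**Figure D5:**
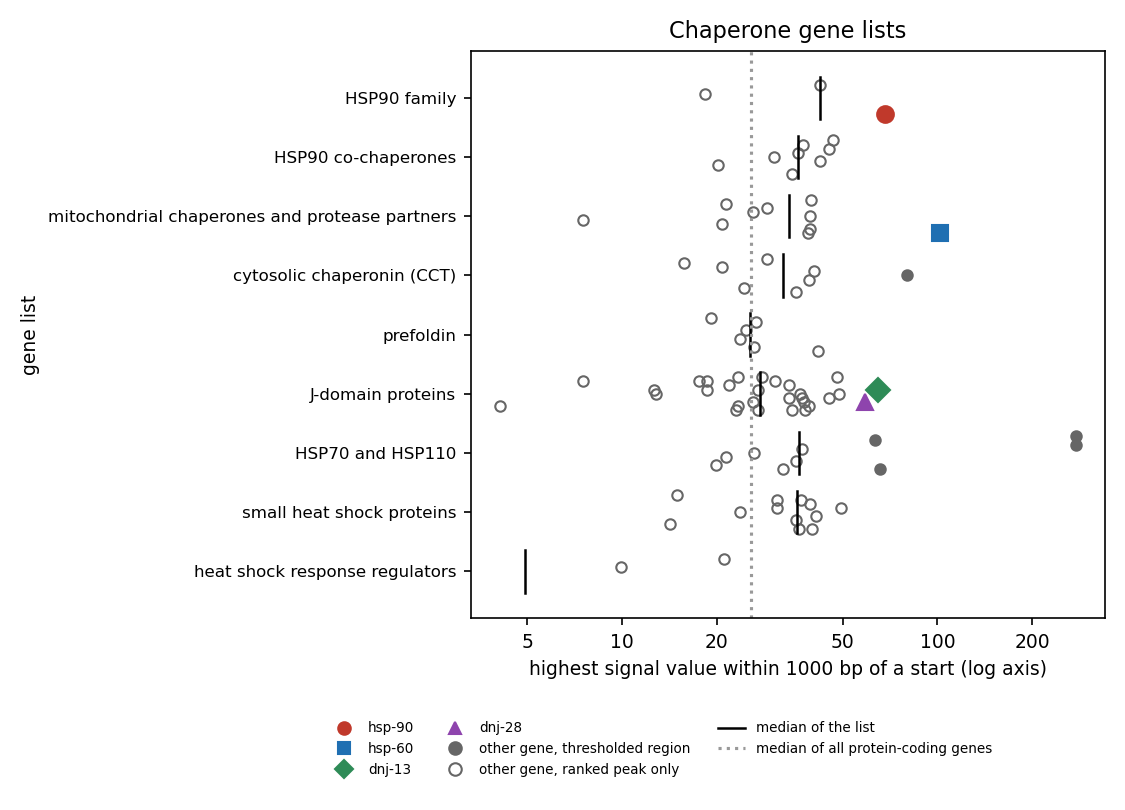
Highest signal value of the pooled ranked list within 1000 bp of a start (x axis, log scale) for each gene of the 9 chaperone lists (y axis); genes with no ranked peak are not drawn but count as 0 in the medians. The 4 genes described here, cct-8 and the HSP70 genes with regions lie at 59.1 or more, and every other listed gene lies at 49.4 or less.

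The protein-coding genes with a thresholded region whose pair of sample signal values was nearest to each gene were found among 164 regions, by the distance between the log2 values in the 2 samples. Nearest to hsp-90 were W09D10.5 (0.107), rpa-2 (0.138) and F58D5.2 (0.141), all higher in replicate 1. Nearest to hsp-60 were ppat-1 (0.125), nfm-1 (0.162) and Y17G9B.5 (0.312), which shares its region with rpl-20, all higher in replicate 2. Nearest to dnj-13 were R12B2.13 (0.053), C04A2.15 (0.065) and C16B8.3 (0.068). Nearest to dnj-28 were tps-2 (0.044), clec-126 (0.106) and osm-11 (0.123). With 2 samples this likeness describes only the size and balance of the values.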

How the data were processed

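Peak lists of 2 ChIP-seq samples of 1 group were used: 4 thresholded and 4 ranked lists on assembly ce11, per the deposited notes on the files, which also name 1 control alignment file. Which aligner and peak caller were run, and in which versions, is not given in the sources used here. Since the scale of the authors' signal value may differ between lists, it was described and ranked within a list. The −log10 global IDR was read as the authors deposited it in the ranked lists. Another 8 columns of input signal in the ranked lists were not used. No list holds read counts, so depth is unknown.

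Each series ranked list was paired with the thresholded list whose peaks it holds at an IDR of 0.01 or less. Peaks sharing at least 1 base were joined into regions, keeping the strongest summit. A gene was counted when a summit lay within 1000 bp of any annotated TSS (Ensembl release 115). A sample's value at a region was its strongest ranked peak sharing a base with it. Promoter windows were centred 100 bp upstream of the gene start. The 12 motifs were matched exactly on both strands. Of the list symbols, 5 (hsp-10, dnj-6, hsp-16.11, hsp-16.49, hsf-2) had no match by symbol in the annotation; Y22D7AL.10, the 10 kDa co-chaperonin gene per RefSeq, was therefore not counted among the listed genes. Python 3.11.15 was used, and the gene assignment, joining and motif search were tested on simulated data.

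No test was made, since there is 1 group and the genes, lists and motifs were chosen with earlier results of these data known. Named genes were the 4 genes, genes starting within 1000 bp of their summits, listed genes with a thresholded summit, the HSP90 and mitochondrial lists, and the 3 nearest genes by likeness. Other listed genes, dhgd-1, adss-1, C47E8.11 and gasr-8 were named after their values were seen.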

Additional observations from a re-analysis of the deposited data

How the results depend on the processing

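Counts of genes with a summit moved with the list used. Of the 4 genes, 3 were in the conservative list, 0 to 1 in a list of 1 sample, and 1 (hsp-60) at a global IDR under 0.001. Within 500 bp of a start 3 remained, without hsp-60, and when only the nearest gene was counted 2 remained, dnj-13 through its weaker peak and dnj-28. The listed chaperone genes numbered 9; they were 3 in each sample's own list, 3 at an IDR under 0.001 and 4 by nearest gene. All protein-coding genes numbered 223; they were 52 to 85 in the lists of 1 sample, 530 at an IDR under 0.05, 36 at an IDR under 0.001, 127 within 500 bp, 356 within 2000 bp and 88 by nearest gene. At an IDR under 0.05 the listed genes stayed at 9, and with Y22D7AL.10 counted as hsp-10, an alternative chosen after seeing the data, they were 10 of 90. The strongest peak stood in the top 0.262% of the pooled ranked list at hsp-90 and in the top 0.318% to 3.589% of the samples' lists. For hsp-60 these were 0.074% and 0.086% to 1.370%, for dnj-13 0.316% and 0.692% to 1.775%, and for dnj-28 0.430% and 1.509% to 1.671%. Ranked over peaks as deposited, hsp-90 stood at 68.7%, dnj-13 at 80.2% and dnj-28 at 90.9% of the thresholded list, against 71.3%, 83.4% and 94.6% over joined regions, since joining leaves fewer items. Pairs of a gene and a motif with a match numbered 6 with the main windows of 50 bp and 12 with 100 bp, as wider windows hold more sequence. No paired analysis was possible because there is 1 group. With 2 samples and no read counts, no error of a peak's signal can be given.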
